A study of Mus musculus with 6 samples.

Results

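The genes described here are 9 genes of heparan sulphate synthesis and of the proteins that carry it, named by symbol: Ext1, Ext2, Extl3, Ndst1, Ndst2, Ndst4, Hs2st1, Sdc4 and Gpc1. All 9 were found among the 12625 gene symbols of the count table. The list was chosen by role and with the log2 fold changes of RANKL over vehicle in these same libraries already known, so their fold changes, and whether each was called, are given as a description and not as a test, and no p-value is given for them. Counts came from 6 libraries of C2C12, a line of mouse myoblasts whose cells fuse to form multinucleated myotubes. In 3 libraries the myotubes, after 5 days of differentiation, had been given recombinant murine RANKL (the TNF family ligand of the receptor RANK) at 100 ng per ml for 72 h, and the other 3 libraries are labelled vehicle. No differentiation or exposure time is given for the vehicle libraries, so an effect of RANKL and one of unequal time in culture cannot be told apart from the labels. No genetic change is named for either group, all 6 libraries come from the 1 line, and RNA isolation and sequencing were done together. The labels do not say that replicates were separate cultures, so the spread between libraries may be technical.

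Heparan sulphate is a linear sugar chain attached to core proteins at the cell surface and in basement membranes. It is built on a short linkage sugar. Extl3 adds the first unit that commits the chain to heparan sulphate, and a complex of Ext1 and Ext2 then extends it. The Ndst enzymes remove acetyl groups from part of the glucosamine units and put sulphate in their place, which opens the way for the later enzymes, among them Hs2st1, which sulphates the uronic acid at its 2-O position. The transmembrane syndecans (Sdc4 is one of them) and the lipid-anchored glypicans (Gpc1 is one of them) present the chains to growth factors such as those of the FGF and HGF families. In muscle these proteoglycans are known for their part in satellite cell activity and in the response of myoblasts to FGF.

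Among these genes Ext1 rose and Ndst4 fell, and the other 7 were not called. A gene is called here when edgeR's quasi-likelihood test over all 12625 genes gave it a Benjamini-Hochberg adjusted p under 0.05. That rule called 12.9% of all genes tested, 5.35% higher and 7.5% lower, against 1 higher and 1 lower of the 9. The median log2 fold change (RANKL over vehicle) was -0.03 over the 9 genes and 0.005 over all genes. In CPM (counts per 1000000, with each library's total scaled by TMM) the groups did not overlap in 6 of the 9 genes, 2 higher and 4 lower under RANKL. Over all genes 31.5% had groups that did not overlap, 14.9% with RANKL above and 16.6% with RANKL below. Because the list was drawn up from this comparison, nothing is read from these counts. The plot of CPM by library shows the 9 genes side by side.

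**Figure D1:**
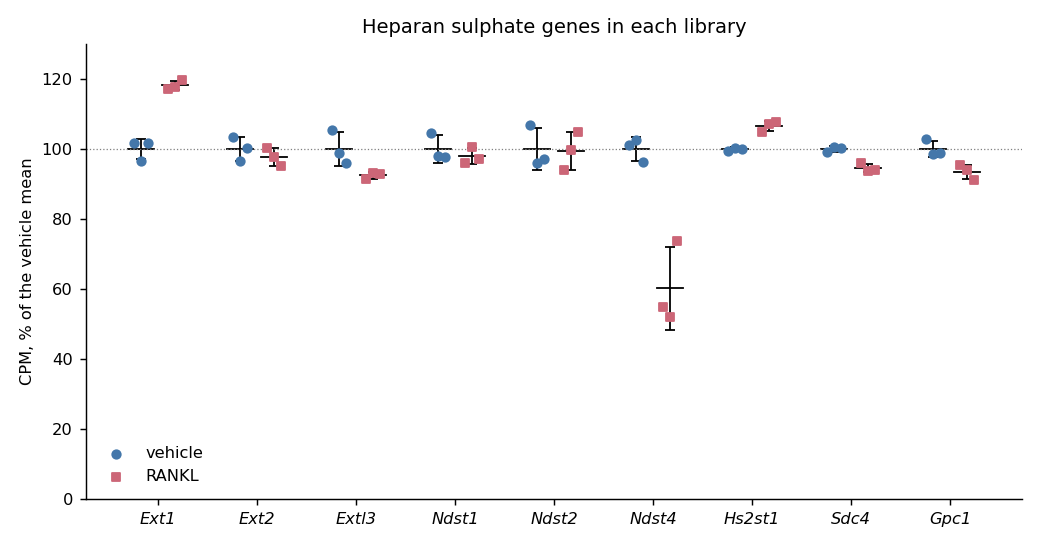
CPM of the 9 genes in each library, as a percentage of that gene's vehicle mean. Circles are the 3 vehicle libraries, squares the 3 RANKL libraries, and bars the mean and SD (n = 3). Ext1 lies above the vehicle libraries and Ndst4 below them in all 3 RANKL libraries.

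Of the 3 chain-building enzymes among the 9 genes, Ext1 was the one called. Ext1 makes the backbone together with Ext2, and stood at 256.2, 243.7 and 256.5 CPM in vehicle replicates 1 to 3 and at 295.3, 297.0 and 301.6 CPM in RANKL replicates 1 to 3. Every RANKL library lay above every vehicle library, and the RANKL libraries were the closer to each other. The log2 fold change was 0.24 ± 0.03 (SE), with a 95% interval from 0.17 to 0.31, or 18.2% higher. Ranked by size this was the 387th of the 676 genes called higher, whose median log2 fold change was 0.28. Ext1 lies on chromosome 15 from 53064038 to 53346159 on the minus strand of mm10, and its exons overlap those of no other GENCODE gene.

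Its partner Ext2 did not follow. Ext2 had 124.3, 116.1 and 120.5 CPM under vehicle and 120.5, 117.4 and 114.5 CPM under RANKL. These ranges overlap, and the log2 fold change was -0.03 ± 0.04 (95% interval -0.11 to 0.04). The difference between Ext1 and Ext2 was not tested. Within each library the log2 ratio of Ext1 to Ext2 in the deposited RPKM (counts per 1000000 per kilobase of gene) was 0.77, 0.80 and 0.82 under vehicle and 1.02, 1.07 and 1.13 under RANKL. The ratio thus moved by 0.28 between the group means, with an SD of 0.02 among vehicle and 0.05 among RANKL libraries, and it was higher in all 3 RANKL libraries.

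Extl3, which starts the chain, was slightly lower under RANKL and was not called. It had 287.8, 269.6 and 261.8 CPM under vehicle and 249.6, 254.0 and 253.6 CPM under RANKL, so that the groups did not overlap. Most of the scatter was in the vehicle group, with a coefficient of variation of 4.9% against 0.957% under RANKL. The log2 fold change was -0.11 ± 0.04 (95% interval -0.19 to -0.04). It was -0.07 without vehicle replicate 1, the highest library, and -0.14, then called, without vehicle replicate 3. Extl3 was also called by DESeq2 and with a gene length trend removed, alone or together with the replicate block.

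As shares of the exostosin family's summed RPKM, Ext1 went from 41.5% ± 0.759 under vehicle to 47.0% ± 0.468 under RANKL (SD, n = 3), while Extl3 went from 26.1% ± 0.863 to 23.1% ± 0.221 and Ext2 from 23.9% ± 0.194 to 22.4% ± 0.583. Extl1 and Extl2, the members of the family outside the 9 genes, held 2.68% ± 0.0546 and 5.82% ± 0.175 under vehicle and 1.86% ± 0.0715 and 5.72% ± 0.0129 under RANKL. These shares depend on the gene lengths used. With the exon lengths of GENCODE the share of Ext1 was 29.3% under vehicle and 34.3% under RANKL, and Extl3 was then the largest at 42.2% and 38.7%.

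**Figure D2:**
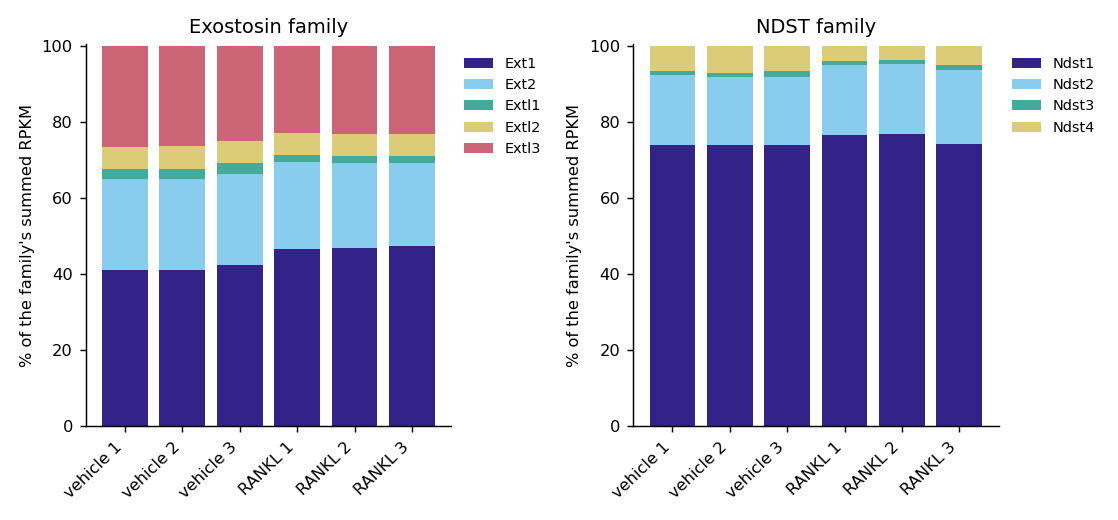
Share of each gene in the summed RPKM of the exostosin family (left) and of the NDST family (right), 1 bar per library, from the deposited per-length values. The Ext1 segment is taller in the 3 RANKL bars (46.6% to 47.5%) than in the 3 vehicle bars (41.0% to 42.4%), and the Ndst4 segment is shorter (3.64% to 5.14% against 6.52% to 7.07%).

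Of the N-deacetylase N-sulphotransferases, Ndst4 fell and the more abundant Ndst1 and Ndst2 did not change beyond their spread. Ndst4 had 320, 278 and 289 counts in vehicle replicates 1 to 3 and 168, 144 and 199 in RANKL replicates 1 to 3. Scaled, that was 8.23, 8.36 and 7.83 CPM under vehicle against 4.46, 4.23 and 6.01 CPM under RANKL. All 3 RANKL libraries lay below all vehicle libraries, with RANKL replicate 3 the nearest to them. The log2 fold change was -0.74 ± 0.12 (95% interval -0.99 to -0.49), or 40.0% lower. It was the 28th lowest of the 12625 fold changes and the 16th in size among the 947 genes called lower, whose median was -0.19.

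The coefficient of variation of Ndst4 was 19.7% among the RANKL libraries and 3.41% among the vehicle libraries, where counting error alone would give 7.71% and 5.82%. Leaving out any 1 library gave log2 fold changes between -0.90 and -0.64, each of them called. Ndst4 lies on chromosome 3 from 125404076 to 125728899 on the plus strand, and no other gene shares its exons.

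Ndst1, the main form of the enzyme in most tissues, had 163.7, 153.3 and 152.8 CPM under vehicle and 150.5, 157.5 and 152.1 CPM under RANKL. Its log2 fold change was -0.03 ± 0.04 (95% interval -0.11 to 0.05). Ndst2, known for its part in the heparin of mast cells, had 26.2, 23.5 and 23.8 CPM under vehicle and 23.0, 24.4 and 25.7 CPM under RANKL, with a log2 fold change of -0.01 ± 0.06 (95% interval -0.14 to 0.11). In both genes the groups overlapped, and the sign of the difference changed with the scaling. Their difference from Ndst4 was not tested.

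Ndst4 is a minor member of its family in these cells. In RPKM, Ndst1 made up 74.0% ± 0.0406 of the family under vehicle and 75.9% ± 1.49 under RANKL, and Ndst2 18.0% ± 0.385 and 18.7% ± 0.661. Ndst4 went from 6.74% ± 0.289 to 4.26% ± 0.787, and Ndst3, which is outside the 9 genes, held 1.26% ± 0.207 and 1.14% ± 0.0711. With GENCODE exon lengths the share of Ndst4 was smaller, 2.75% under vehicle and 1.7% under RANKL.

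Hs2st1, the 2-O-sulphotransferase, was slightly higher under RANKL and was not called. It had 144.2, 145.5 and 145.1 CPM under vehicle and 152.0, 155.4 and 156.0 CPM under RANKL. The groups did not overlap, and the vehicle libraries differed by little more than 1 CPM. The log2 fold change was 0.09 ± 0.03 (95% interval 0.03 to 0.16), and without RANKL replicate 1, the lowest of its group, it was 0.11 and called. Hs2st1 was also called under total count scaling and with a gene length trend removed, alone or together with the replicate block.

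The core proteins Sdc4 and Gpc1 were slightly lower under RANKL, and neither was called. Sdc4, a syndecan that gathers at focal adhesions, had 136.1, 138.1 and 137.9 CPM under vehicle and 131.9, 128.7 and 129.2 CPM under RANKL, a log2 fold change of -0.08 ± 0.03 (95% interval -0.15 to -0.01). Gpc1 (glypican-1) had 1906, 1826 and 1833 CPM under vehicle and 1768, 1741 and 1690 CPM under RANKL, a log2 fold change of -0.10 ± 0.03 (95% interval -0.17 to -0.03). In both genes every RANKL library lay below every vehicle library. Gpc1 was called without RANKL replicate 1, at -0.11, and by DESeq2 and limma-voom. Both genes were called, each at -0.09, with a gene length trend removed, alone or together with the replicate block. With the trend on GC content removed Gpc1 stood at -0.04, and with total count scaling Sdc4 stood at -0.05, neither of them called. The 3′ end of Gpc1 (chromosome 1, 92831645 to 92860779) overlaps exons of Ankmy1 on the opposite strand, and whether reads were counted by strand is not stated in these sources.

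**Figure D3:**
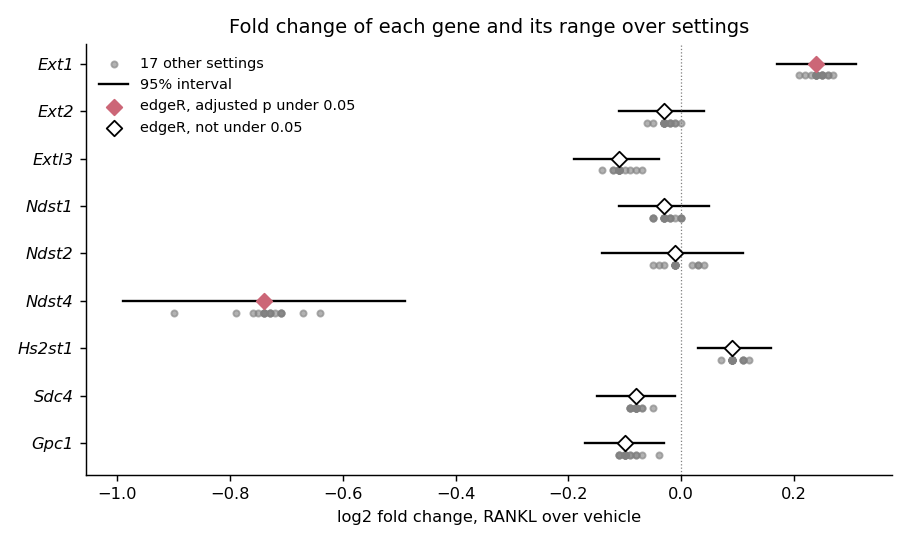
Log2 fold change (RANKL over vehicle) of the 9 genes. Diamonds are the edgeR values, filled where the gene was called, lines their 95% intervals, and grey points the values under 17 other settings. Only the points of Ext1 (0.21 to 0.27) and Ndst4 (-0.90 to -0.64) belong to genes called under every setting run.

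The promoter of Sdc4 is shown because it holds a match to the kappa-B consensus, the sequence that NF-kB subunits recognise, and NF-kB is the best known pathway downstream of RANK. RefSeq promoter windows on GRCm38.p6 were given for 4 of the 9 genes (Ext2, Sdc4, Hs2st1 and Ndst2). The sequence below is the 250 bases before the RefSeq start of Sdc4 on the minus strand, chr2:164443189-164443438, read 5′ to 3′, with the kappa-B match and a TATAA in capitals.
Sdc4: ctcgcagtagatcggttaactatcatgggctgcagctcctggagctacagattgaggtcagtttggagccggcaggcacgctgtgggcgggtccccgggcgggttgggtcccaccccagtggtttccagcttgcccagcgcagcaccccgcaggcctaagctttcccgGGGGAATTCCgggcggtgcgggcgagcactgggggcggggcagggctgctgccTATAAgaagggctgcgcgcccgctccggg
The match, GGGGAATTCC, ends 72 bases before the RefSeq start and the TATAA 24 bases before it. GENCODE places Sdc4 from 164424247 to 164443887, so by that gene model the window lies inside the gene, after its start. Both strands were searched, and 3.9% of 32851 mouse promoter windows of this length held a kappa-B match and 22.8% a TATAA. The windows of Ext2, Hs2st1 and Ndst2 held no kappa-B match, though Ext2 held a TATAA as well. The core of the GC box, GGGCGG, was found 4 times in Sdc4 (no overlap with the kappa-B match), 3 times in Ndst2 and 1 time in Hs2st1, and 32.7% of windows held it. The GC content was 68.0% in Sdc4, 64.4% in Hs2st1, 64.8% in Ndst2 and 54.8% in Ext2, and the median window had 52.4%. These are matches of letters only. As given above, Sdc4 was 5.41% lower under RANKL and not called.

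In levels per gene length the 9 genes span a wide range. On the deposited RPKM scale the vehicle means were 522 ± 12.5 for Gpc1, 72.8 ± 2.11 for Ext1, 55.9 ± 0.44 for Sdc4, 45.7 ± 2.24 for Extl3 and 41.9 ± 1.43 for Ext2 (SD, n = 3). Below these stood Hs2st1 with 30.1 ± 0.14, Ndst1 with 25.8 ± 1.01, Ndst2 with 6.28 ± 0.379 and Ndst4 with 2.35 ± 0.0795 RPKM. The median of all genes was 9.33 RPKM. Gpc1 ranked 64th of 12625 genes, and Ndst2 and Ndst4 lay below that median. Each gene's lowest vehicle library stood above the highest of the next gene in this order, although Extl3 (lowest library 43.8 RPKM) and Ext2 (highest library 43.3 RPKM) were close.

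The order in the middle of that range rests on the lengths. The deposited values imply 3464 bases for Ext1 and 2870 for Ext2, where the exons of GENCODE add up to 8077 and 7328 bases. For Ndst4 they imply 3457 bases, against 11720 in GENCODE. With GENCODE lengths Ext1 had 31.2 ± 0.905 CPM per kilobase under vehicle, below Sdc4 (53.9 ± 0.425) and Extl3 (45.0 ± 2.21), and Ext2 (16.4 ± 0.561) fell below Ndst1 and Hs2st1. Gpc1 stayed first, and Ndst2 and Ndst4 the last in the order, with Ndst4 at 0.694 ± 0.0237 CPM per kilobase under vehicle. The ratios between groups within a gene do not depend on its length.

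**Figure D4:**
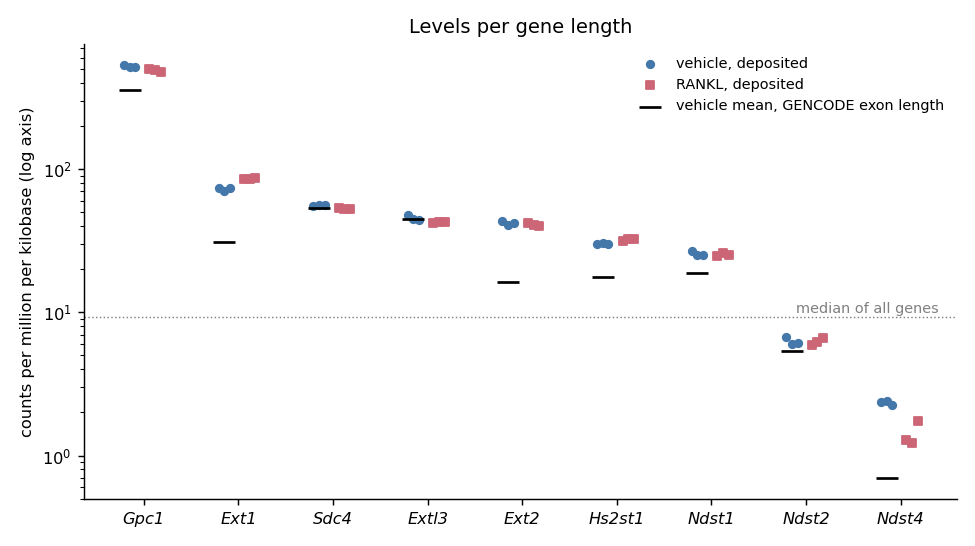
Level of each gene per kilobase (log axis) in the 3 vehicle (circles) and 3 RANKL (squares) libraries, from the deposited per-length values, with the vehicle mean by GENCODE exon length as a dash. Gpc1 lies far above the other 8 genes and Ndst4 lowest, and the dashes of Ext1, Ext2 and Ndst4 lie well under their circles.

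Over the 6 libraries, the genes whose log2 CPM ran most like that of Ext1 were Cfb (Pearson r = 0.9986), Gnl3 (0.9974) and Dact2 (0.9953). Cfb, complement factor B, had a log2 fold change of 2.64, far larger than that of Ext1. For Ndst4 they were Nelfa (0.9958), Vgll3 (0.9946) and Myadm (0.9936), and for Sdc4 they were Tmem184a (0.9988), Disp1 (0.9971) and Ank1 (0.9968). These values describe 6 libraries in 2 groups, compared over 11404 genes, of which 175, 121 and 90 had r above 0.95 with Ext1, Ndst4 and Sdc4.

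The rest of the pathway was taken from 9 lists by role, with 82 of 100 listed symbols measured and the other 18 not analysed here. Among those 18, Bpnt2 is another symbol of Impad1, which was measured. Of the 82, edgeR called 8 higher and 9 lower, 20.7% against 12.9% of all genes tested, with a median log2 fold change of -0.02. These lists too were chosen with earlier results of these data known, so nothing is read from that difference. Calls of 6 of these 17 genes were made under every setting run: Extl1, Sulf2, Csgalnact1, Chst15, Fgf7 and Hgf. Leaving out vehicle replicate 2 gave 4 in each direction, vehicle replicate 3 gave 4 higher, vehicle replicate 1 gave 4 lower, and RANKL replicate 2 gave 5 in each direction. Of the genes named below, Hs6st1, Sulf2, Sdc3, Sdcbp, Chst15, Spry1, Cd34 and Ccna2 share exon sequence with a gene on the opposite strand. Hgf, Tgfbr3, Glce, Itgam and Top2a do so with a gene on the same strand, and Egfl7 and Fgf2 with genes on both. This makes the counts of all these genes less certain. The plot of the pathway by role sets the lists beside the 9 genes.

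No gene that acts before the chain passed the test, in lists too short for the absence of a call to be read against the 12.9% of all genes called. Of 6 measured enzymes of the linkage sugar edgeR called 0, as did DESeq2, limma-voom and limma-trend, and 0 had an unadjusted p under 0.05 by edgeR. B3gat3, which adds the glucuronic acid of the linkage, had the smallest p there (log2 fold change 0.12 ± 0.06, edgeR adjusted p = 0.222). Of 10 genes that supply sugar and sulphate donors edgeR called 0, although 2 reached an unadjusted p under 0.05. The counts called by limma-trend, limma-voom and DESeq2 were also 0. Slc26a2, a sulphate transporter, stood at -0.13 ± 0.05 (edgeR adjusted p = 0.11), and was called once a GC content trend had been taken out, at -0.16 (edgeR adjusted p = 0.0466). Papss2, which makes the sulphate donor and was named after its value was seen, had the value farthest from 0 in the list, 0.47 ± 0.20 (edgeR adjusted p = 0.142), from 26 to 45 counts per library. The median log2 fold change was 0.05 in each of these lists.

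Of 8 further chain and modification enzymes measured, 2 fell and 0 rose, with a median of -0.17. Extl1, an exostosin-like transferase, fell from 19.3 ± 0.47 to 13.9 ± 0.546 CPM (log2 fold change -0.47 ± 0.06, edgeR adjusted p = 0.000154), with all 3 RANKL libraries below all vehicle libraries. Hs6st1, a 6-O-sulphotransferase, fell from 83.4 ± 3.26 to 76.6 ± 1.39 CPM (-0.12 ± 0.04, edgeR adjusted p = 0.0416). That call ended without vehicle replicate 1 or 2 or RANKL replicate 1 or 2, under total count scaling, and by DESeq2 and limma-trend, and its value was -0.07, not called, with the trend on GC content removed. Hs3st1, a 3-O-sulphotransferase at 1.95 ± 0.141 CPM under vehicle, had a log2 fold change of -0.61 ± 0.19 and was not called (edgeR adjusted p = 0.0502). Over the 17 alternatives its adjusted p ran from 0.0363 to 0.172. It was -0.42 without RANKL replicate 1 (edgeR adjusted p = 0.172) and -0.76 without RANKL replicate 2 (edgeR adjusted p = 0.0424), and DESeq2 gave an adjusted p of 0.116. Glce, the epimerase that acts before Hs2st1, had -0.02 ± 0.05 and Ndst3 -0.21 ± 0.15, and neither was called. Hs3st1, Glce and Ndst3 were named after their values were seen.

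Among 8 other core proteins 2 rose and 2 fell. Perlecan, Hspg2, the large basement membrane proteoglycan, fell from 2326 ± 186 to 2042 ± 49.1 CPM (log2 fold change -0.19 ± 0.05, edgeR adjusted p = 0.0181). Gpc6, the other glypican measured, fell by 0.18 ± 0.05 on the log2 scale (edgeR adjusted p = 0.0358). Col18a1, a basement membrane collagen that carries heparan sulphate, rose by log2 0.16 ± 0.04 (edgeR adjusted p = 0.0222) and Tgfbr3, betaglycan, by 0.21 ± 0.05 (edgeR adjusted p = 0.0169). Each of these 4 calls ended without some single library. These were vehicle replicate 1 or 2 or RANKL replicate 2 for Hspg2, any vehicle replicate or RANKL replicate 1 for Gpc6, vehicle replicate 2 or RANKL replicate 2 for Col18a1, and vehicle replicate 1 or 3 for Tgfbr3. Hspg2 stood at -0.12 without vehicle replicate 1 and Gpc6 at -0.11 without RANKL replicate 1. By limma-trend Gpc6, Col18a1 and Tgfbr3 were not called (adjusted p = 0.104, 0.0668 and 0.07), nor was Gpc6 under total count scaling (edgeR adjusted p = 0.081). With the trend on GC content removed Hspg2 stood at -0.12 and was not called (edgeR adjusted p = 0.112).

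The syndecans other than Sdc4 were not called either. Sdc1 had a log2 fold change of 0.07 ± 0.03, Sdc2 of -0.06 ± 0.04 and Sdc3 of 0.07 ± 0.07. Calls appeared with the trend on GC content removed, for Sdc1 at 0.10 (edgeR adjusted p = 0.0394) and for Sdc2 at -0.11 (edgeR adjusted p = 0.0382), and under total count scaling for Sdc1 at 0.10 (edgeR adjusted p = 0.0493). Sdc2 was the most abundant syndecan, with 61.9% ± 0.74 of the family's summed RPKM under vehicle, and Sdc4 held 19.2% ± 0.203 under vehicle and 18.7% ± 0.696 under RANKL. Of 5 cytoplasmic partners of syndecans, Sdcbp (syntenin, which binds the syndecan tail) rose by log2 0.12 ± 0.03 (edgeR adjusted p = 0.0349), a call that ended without any 1 vehicle replicate and without RANKL replicate 2. It also ended by DESeq2 (adjusted p = 0.0567) and once a GC content trend had been taken out, where the value was 0.07 (edgeR adjusted p = 0.18). Gpc6, Sdc1, Sdc2 and Sdc3 were named after their values were seen.

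The sulphatases that trim finished chains moved in opposite directions. Of 6 genes of editing and shedding, Sulf2 fell from 37.1 ± 1.94 to 29.0 ± 1.86 CPM (log2 fold change -0.36 ± 0.06, edgeR adjusted p = 0.000773). Sulf1, an enzyme of the same activity, rose from 168 ± 4.5 to 183 ± 4.14 CPM (0.12 ± 0.03, edgeR adjusted p = 0.0268). In both genes, named by their small p, the groups did not overlap, as was so in 31.5% of all genes. The call of Sulf1 ended without RANKL replicate 3 and without either of vehicle replicates 2 and 3.

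Chondroitin sulphate is built on the same linkage sugar. Of 15 measured enzymes of that branch 1 rose and 3 fell. Csgalnact1, which starts chondroitin chains, rose from 14.2 ± 0.682 to 17.8 ± 0.948 CPM (log2 fold change 0.33 ± 0.06, edgeR adjusted p = 0.0037). Chst15, a chondroitin sulphotransferase, fell by 0.29 ± 0.06 on the log2 scale (edgeR adjusted p = 0.00451). The falls of Chpf (-0.14 ± 0.04) and Chst11 (-0.14 ± 0.04, named after its value was seen) were smaller and were not called without any 1 of several libraries: vehicle replicate 2 or 3 or RANKL replicate 2 or 3 for Chpf, and any vehicle replicate or RANKL replicate 1 or 2 for Chst11. Both calls also ended under total count scaling and by limma-trend, that of Chst11 by DESeq2 as well (adjusted p = 0.0685), and Chpf stood at -0.09 with the trend on GC content removed (edgeR adjusted p = 0.131). Leaving out RANKL replicate 2, or either of vehicle replicates 2 and 3, left 1 gene of the branch lower.

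**Figure D5:**
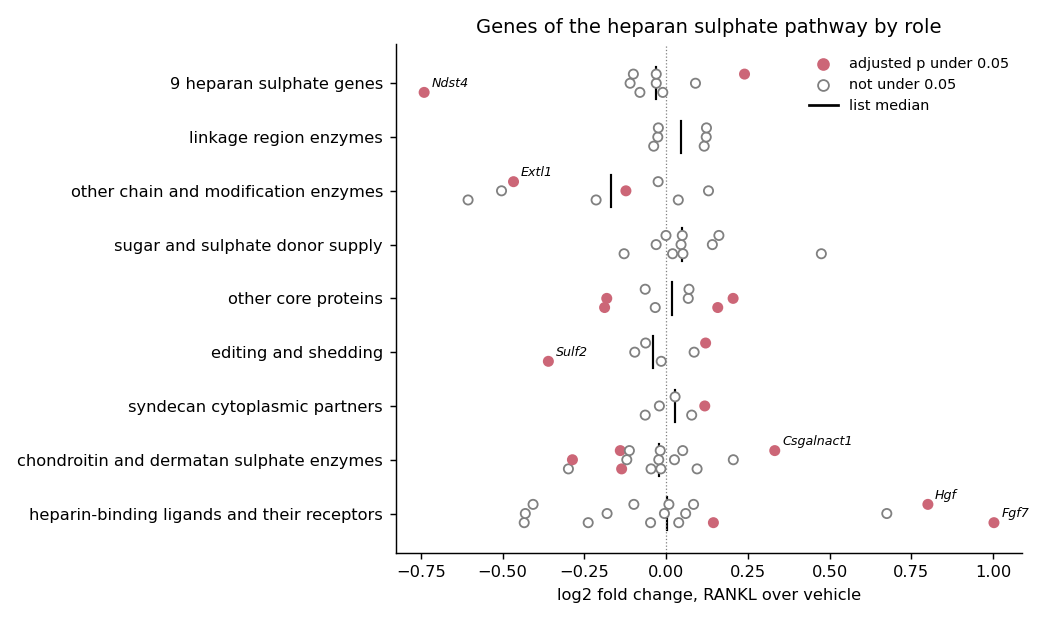
Log2 fold change (RANKL over vehicle) of each measured gene, in the 9 genes and in 8 of the 9 lists. Filled points passed edgeR's test at an adjusted p under 0.05, open points did not, and the bar is the list's median. Among the chain and modification enzymes, the 9 genes included, the filled points with a log2 change beyond 0.4 are Ndst4 and Extl1, both lower.

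Among 16 measured growth factors and receptors that bind heparan sulphate or heparin, edgeR called 3 ligands higher and 0 genes lower. Hgf, the ligand of Met, rose from 8.65 ± 0.355 to 15.1 ± 0.945 CPM (log2 fold change 0.80 ± 0.07, edgeR adjusted p = 6.8e-06). Fgf7, a ligand of an FGF receptor form in epithelia, rose from 1.89 ± 0.284 to 3.80 ± 0.852 CPM (1.00 ± 0.18, edgeR adjusted p = 0.0024). Vegfa rose by log2 0.14 ± 0.04 (edgeR adjusted p = 0.0143), a call that ended without RANKL replicate 2 and without either of vehicle replicates 2 and 3. In none of the 3 genes, which were named by their small p, did the groups overlap, as was so in 31.5% of all genes. Other ligands that were not called had values of either sign. Among them were Fgf1 (log2 fold change 0.68), Fgf2 (-0.43 ± 0.16, edgeR adjusted p = 0.0847) and Ptn (pleiotrophin, -0.43 ± 0.23, edgeR adjusted p = 0.246). All of them were named after their values were seen. Fgf2 was called lower by limma-trend (adjusted p = 0.0409), and Ptn without RANKL replicate 3, at -0.74 (edgeR adjusted p = 0.0395).

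The cells carried muscle markers throughout. The 10 myotube markers summed to 28700 to 30998 CPM in the vehicle and 27003 to 27588 CPM in the RANKL libraries, with 4 of 10 lower (Acta1 at -0.19 ± 0.03, Myh3 at -0.13 ± 0.04, Myh8 and Actn2) and a median of -0.10. The call of Myh3 ended without RANKL replicate 2, without either of vehicle replicates 1 and 2, under total count scaling, by limma-trend and once a GC content trend had been taken out. The 9 markers of mononucleated myoblasts and cycling cells summed to 191.5 to 200.6 CPM under vehicle and 219.1 to 243.5 CPM under RANKL. Of these 9 markers 6 rose, which were Cd34 and the cycling cell genes Mki67 (0.55 ± 0.06), Top2a, Cdk1, Ccna2 and Ccnb1. Spry1 fell (-0.34 ± 0.05), and Myf5 and Pax7 were not called. Of all genes tested 5.35% were called higher and 7.5% lower. Of 10 macrophage and osteoclast markers 3 were measured, summing to 4.66 to 5.31 CPM under vehicle and 5.82 to 6.95 CPM under RANKL (Cd14 at 3.62 ± 0.29 and Itgam at 0.756 ± 0.0974 CPM under vehicle), and Ptprc, Csf1r, Acp5 and Ctsk are among those not analysed here. Of 6 endothelial markers Tek and Egfl7 were measured, summing to 1.57 to 2.47 and 1.97 to 2.28 CPM. Of the 3 and of the 2 measured, edgeR, DESeq2, limma-voom and limma-trend called 0, with 1 and 0 at an unadjusted p under 0.05 by edgeR. The part of these shifts in the values of Ext1, Ndst4 and the pathway genes was not tested, and in such bulk samples fewer cells of a type and less RNA per cell cannot be told apart.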

How the data were processed

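The authors deposited a table of raw counts per gene symbol and a table of log2 values. The tools FastQC, STAR and edgeR and the build mm10 appear in the submitters' processing notes with neither role nor version, while counter, annotation and use of strand are not given in the sources read. Both tables hold 12625 genes and 4708 lines with no gene or value, which were left out. The third-highest library of every gene had at least 0.504 CPM, so low genes had been removed. The deposited log2 values equal log2 CPM of the counts less a constant per gene and per library (SD at most 0.00161 over 11333 genes), so they were read as log2 RPKM. This reading rests on the values, since the header names no unit.

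Total counts lay between 32732604 and 39677999 per library, and library pairs of 1 group had a mean chi-square per gene of 3.386 to 9.522, so none was a duplicate. The test was edgeR 4.0.16 in R 4.3.3 (TMM, filterByExpr, which removed 0 genes, quasi-likelihood F test, Benjamini-Hochberg over all genes, adjusted p under 0.05). The SE is the log2 fold change divided by the square root of F. Alternatives used limma 3.58.1 and DESeq2 1.42.0, other scalings and filters, offsets for gene length or GC content, a block and each library left out. On simulated data for the same 12625 genes, 67% of changes of log2 0.3 and 100% of changes of log2 1 were recovered.

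The 9 genes, the lists by role and the markers were chosen with earlier results of these data known. The naming rule took all 9 genes, up to 3 called genes per list by smallest p (else the smallest p), 2 markers per marker list by level, and the 3 genes most correlated in log2(CPM + 0.5) with Ext1, Ndst4 and Sdc4. The result of 1 list, counted in the totals, is not reported here. Gene models are GENCODE M21 (mm10), which matched 12176 symbols directly, 382 by an older name and not 67. GC content is that of the longest transcript. Of the count table's genes, 12558 had a length and a GC content.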

Additional observations from a re-analysis of the deposited data

How the results depend on the processing

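Ext1 and Ndst4 were called under all 17 alternatives, with log2 fold changes of 0.21 to 0.27 and -0.90 to -0.64. Of the 9 genes, 2 (with Hs2st1) were called higher under total count scaling (8.48% of all genes). Once a gene length trend was taken out, 2 were called higher and 4 lower. This held for the trend alone (6.2% and 7.7% of all genes) and together with the replicate block (7.57% and 9.25%). The number called lower was 3 by DESeq2 (6.41% of all genes) and 2 by limma-voom (7.56%). With single libraries left out, 1 to 2 of the 9 were called higher and 1 to 2 lower. The same fits called 2.95% to 5.91% of all genes higher and 4.25% to 6.97% lower.

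Over the other pathway genes, total count scaling gave 10 higher and 4 lower, against 8 and 9 with TMM, and leaving out single libraries gave 4 to 8 higher and 4 to 10 lower. Over all genes, total count scaling gave 1070 higher and 626 lower, and shifted the median log2 fold change by 0.031. Leaving out single libraries gave 373 to 746 higher and 537 to 880 lower. With all libraries 676 were higher and 947 lower. The counts were 426 and 561 without vehicle replicate 1, 373 and 537 without vehicle replicate 2, and 452 and 722 without vehicle replicate 3. They were 649 and 880 without RANKL replicate 1, 468 and 596 without RANKL replicate 2, and 746 and 870 without RANKL replicate 3. The causes were not tested.

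Of genes that were not called, Ndst1 stood at 0.00 with total count scaling, Ndst2 at 0.02 under that scaling and 0.03 after taking out the GC content trend, and Glce at 0.01 with total count scaling. With single libraries left out, Ndst1 ranged from -0.05 to 0.00, Ndst2 from -0.05 to 0.04, Glce from -0.06 to 0.03, Egfl7 from -0.06 to 0.32 and Tek from -0.23 to 0.30.

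Same-numbered libraries of the groups correlated by 0.132, 0.0581 and 0.00909 in their deviations from the group means, and differently numbered ones by -0.126 to 0.0713. With 3 libraries per group these deviations are not independent, so whether same-numbered libraries were paired cannot be told from them. The replicate block alone gave 730 higher and 1008 lower genes, and 1 higher and 1 lower of the 9. Ndst4 had 144 counts in its lowest library, and how well changes are recovered at counts that low was not tested separately.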
